A study of Mus musculus with 8 samples.

Results

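The genes described here are 44 markers of macrophages and other myeloid cells, taken by name from a fixed list. The list was chosen with earlier results of these data known. They are 14 tissue-resident macrophage genes, 6 pan-leukocyte genes, 5 antigen-presenting genes, 9 myeloid receptors, 8 scavenging and degradation genes and 2 myeloid transcription factors. A probe could be named for 43 of them, and all 43 were among the 33619 genes and unnamed features tested, of which 18164 had a symbol. No probe on the array was named Cd68, the endosomal glycoprotein widely used as a macrophage marker, so it has no value here. Of the 43, 33 were well above background on all 8 arrays and 10 were not.

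The samples were mesonephric tubules of C57/BL6 mouse embryos, cut by microdissection from frozen cryosections stained with toluidine blue, with total RNA labelled with Cy3 and hybridised to 1-colour arrays. The design sets 5 wild-type arrays against 3 arrays labelled p21-null, from p21-/- embryos (n = 3); the series describes the wild-type tubules as senescent and the p21-null tubules as non-senescent. The embryonic stage, the allele of the null and whether each sample came from its own embryo are not given in the labels, so a p-value measures only the spread between these samples. The samples are bulk tissue, in which fewer cells of a type and less RNA per cell cannot be told apart.

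Macrophages of the embryo arise from yolk sac and later from fetal liver progenitors, settle in nearly every organ, depend on signalling through the receptor Csf1r and on the transcription factor PU.1 (encoded by Spi1), and clear dying cells and debris. Fetal tissue macrophages are known for complement C1q, scavenger receptors and lysosomal enzymes, and they carry receptors that signal through the ITAM adaptors Tyrobp (DAP12) and Fcer1g. MHC class II genes, which present peptides to CD4 T cells, are a separate part of the myeloid programme, controlled by the coactivator Ciita through the X and Y boxes of class II promoters. Macrophages are also known to remove senescent cells from tissues.

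The DNA around the start sites of these genes was read for the letters of both kinds of control element. Promoter windows from RefSeq (GRCm38.p6), reaching from 250 bases before to 50 bases after each start, were found for 31 of the 44 genes. They were searched on both strands for GAGGAA, the core of a PU.1 site, for AGNNACNGA, written for an X box, and for ATTGG, a Y box. Windows around 4 PU.1 cores are shown first, chosen after the values were seen because their genes recur in the results below. All 4 genes had higher means in the labelled p21-null arrays. Cores of genes with differences near or below 0, such as Itgam, Cd33, Fcgr1 and Ptprc, are not shown, so the choice links no core to a difference. Each is written 5′ to 3′ on the strand of its gene, with the core in capitals (GAGGAA, or TTCCTC where it lies on the opposite strand).
Laptm5 (chr4:130913263-130913298, + strand, core starting 38 bases upstream): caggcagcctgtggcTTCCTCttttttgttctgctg
Trem2 (chr17:48346346-48346381, + strand, 40 bases upstream): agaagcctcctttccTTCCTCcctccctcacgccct
C1qb (chr4:136886210-136886245, - strand, 30 bases upstream): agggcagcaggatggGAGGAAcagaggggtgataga
Marco (chr1:120505150-120505185, - strand, 146 bases upstream): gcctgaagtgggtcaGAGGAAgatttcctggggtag

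For the class II genes, H2-Eb1 is shown because its window holds an X box, starting 92 bases upstream, followed by Y boxes 59 and 35 bases upstream, the latter on the opposite strand. H2-Aa, a class II alpha chain gene, is shown with its 1 Y box, 48 bases upstream. Capitals mark the boxes.
H2-Eb1 (chr17:34305760-34305851, + strand): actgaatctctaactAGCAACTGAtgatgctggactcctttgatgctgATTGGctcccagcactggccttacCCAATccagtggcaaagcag
H2-Aa (chr17:34287852-34287886, - strand): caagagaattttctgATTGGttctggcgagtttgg

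The PU.1 core was present in the windows of 16 of the 31 genes (51.6%), against 31.3% of all 27025 genes with a window. The Y box was in 15 of 31 (48.4%), against 41.1% of all genes, and the X box in 5 of 31 (16.1%), against 19.8%; the X box match of C1qb overlaps its PU.1 core. These letters are short and common, so a match is a description of the sequence and not a binding site. The windows of Timd4, Gpnmb, Irf8, Lyz1 and Lyz2 did not contain GAGGAA on either strand. Among the 30 tested genes with a window, the core was present in 7 of the 13 that were higher at an unadjusted p under 0.05 (Aif1, C1qb, C1qc, Cd53, Laptm5, Marco and Pf4) and in 8 of the other 17.

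An array had 82.2% to 89.2% of its 55681 probes well above background, no spot was saturated, and pairs of arrays correlated between 0.865 and 0.952 over features. The arrays lay on 3 slides: wild-type replicates 1, 2 and 3 with labelled p21-null replicate 1, wild-type 4 with labelled p21-null 2, and wild-type 5 with labelled p21-null 3. Cdkn1a, which encodes p21, did not separate the groups: its brighter probe differed by −0.19 on the log2 scale (labelled p21-null minus wild type, two-sided exact permutation p = 0.768) and its dimmer probe by −0.24 (exact p = 0.482), where 56 splits allow a p of 0.0179 at the smallest. Whether either probe lies in a deleted part is not given, which is why the word labelled stays with the group name. Of 18 markers of mesonephric epithelium such as Pax2 and Lhx1, 15 were well above background on all arrays. At an adjusted p under 0.05 limma called 0 of 33619 features (0%), the smallest adjusted p being 0.148; at an unadjusted p under 0.05 it gave 3400 (10.1%), 2084 higher (6.2%) and 1316 lower (3.91%) in the labelled p21-null arrays.

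Against that background, the macrophage and myeloid genes lay mostly on the higher side in the labelled p21-null arrays. All values below are log2 processed signal minus the 75th percentile of the array, so 0 is the level of that percentile, and differences are labelled p21-null minus wild type. None of the 43 passed the adjusted threshold, and the smallest adjusted p among them was 0.187. The difference was above 0 for 36 of 43 genes, against 47.7% of all features, with a median of 1.21 against −0.03 over all features. At an unadjusted p under 0.05, 18 genes were higher (41.9%, against 6.2% of all features) and 0 were lower. In 4 genes (9.3%, against 4.43%), Timd4, C1qa, Gpnmb and Irf8, every labelled p21-null array lay above every wild-type array; in 0 genes did every one lie below (2.47% of all features). Of these 4, Gpnmb passed the filter on dim probes only through its labelled p21-null arrays, and a gene of that kind had to differ. Vsig4 and Itgax, both among the 36 genes above 0, also fell short of that filter on their wild-type arrays alone. The filter thus favoured a positive difference in them. Among the 33 genes above background on all arrays, 28 were above 0 (against 47%), 15 were higher at an unadjusted p under 0.05 (against 6.23% of the 28075 features of that kind) and 2, C1qa and Irf8, had groups that did not overlap (against 4.63%).

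**Figure D1:**
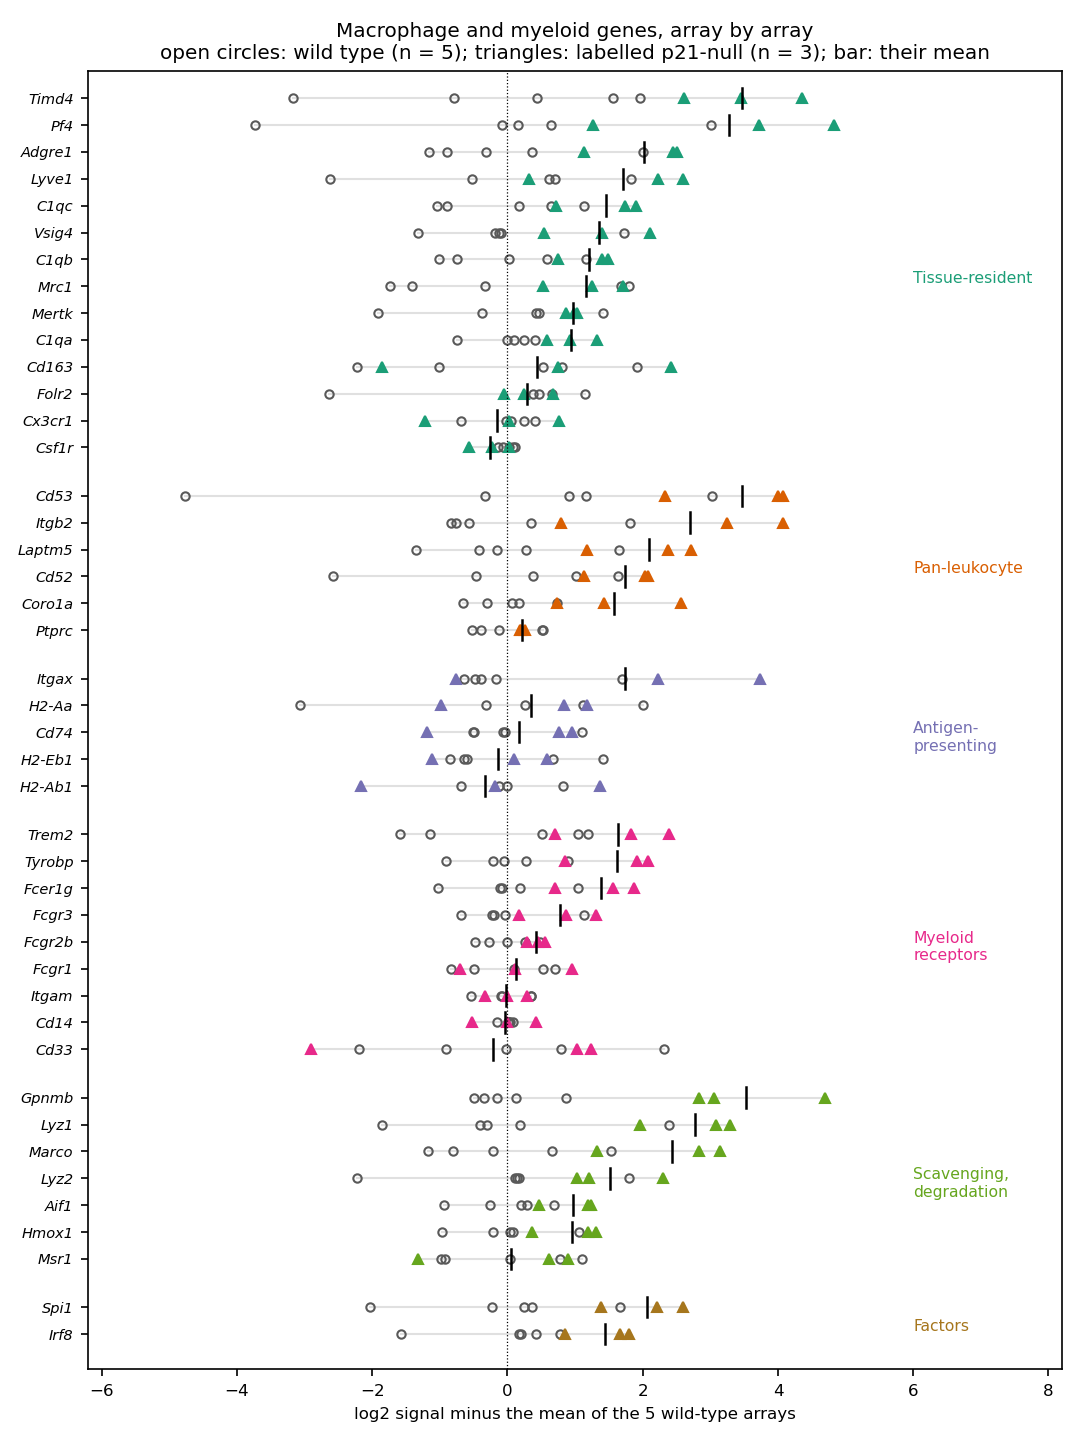
Log2 signal of each of the 43 measured genes on each array, minus the mean of the 5 wild-type arrays (x axis, log2 units), grouped by role. Open circles are wild-type arrays, triangles are labelled p21-null arrays and the bar is their mean; the tissue-resident, pan-leukocyte, scavenging and transcription factor genes lie mostly to the right, while most antigen-presenting genes and Csf1r, Cx3cr1, Itgam and Cd14 lie around 0. Each gene is shown by its brightest probe alone, and the dimmer Csf1r probes differ by 1.14 and 2.08.

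The 2 lineage transcription factors stood higher in the labelled p21-null arrays. Spi1, the gene of PU.1 and required for macrophages to form, read −1.20, −1.80, −3.60, −1.32 and 0.09 in the wild-type arrays (replicate 1 first) and 1.03, −0.18 and 0.64 in the labelled p21-null arrays, in the order used for every gene below. Wild-type replicate 5 exceeded labelled p21-null replicate 2, so the groups overlapped at 1 array. The difference was 2.06 ± 0.72 (SE), a 4.18-fold higher mean, with an unadjusted p of 0.019 and an adjusted p of 0.388 (limma). Irf8, a partner of PU.1 in monocytes and macrophages, read −0.59, −1.20, −1.17, −2.94 and −0.94 against 0.43, −0.52 and 0.30. Here the highest wild-type array, at −0.59, lay just under the lowest labelled p21-null array, at −0.52, and the difference was 1.44 ± 0.53 (2.71-fold, unadjusted p = 0.0244, adjusted p = 0.407).

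Tissue-resident macrophage genes were higher in 12 of 14 cases, with a median difference of 1.19. At an unadjusted p under 0.05, 6 of the 14 were higher (6.2% of all features) and 0 were lower. Adgre1, a surface receptor that is a standard marker of mouse macrophages, read −1.01, −0.33, −1.58, −1.86 and 1.30 in wild type and 1.74, 0.44 and 1.81 in the labelled p21-null arrays. Its 4 lower wild-type arrays were below all labelled p21-null arrays and wild-type replicate 5 lay among them. The difference was 2.03 ± 0.71 (4.07-fold, unadjusted p = 0.0189, adjusted p = 0.388), and the second Adgre1 probe gave 1.75 ± 0.62.

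Timd4, a phosphatidylserine receptor that binds apoptotic cells and marks long-lived resident macrophages, cleared background on 4 of the 5 wild-type arrays and on all 3 others. Wild-type values were −4.45, −5.68, −8.05, −2.93 and −3.32, and labelled p21-null values −1.44, −2.27 and −0.52. The groups did not overlap, and the difference of 3.47 ± 1.08 (11.1-fold) had an unadjusted p of 0.0105 and an adjusted p of 0.337. Wild type alone spanned over 5 log2 units for this gene, and without wild-type replicate 3, its lowest array, the difference was 2.68.

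The 3 chains of complement C1q, the recognition protein of the classical pathway made largely by macrophages, had similar differences. C1qa read −0.96, −1.36, −2.10, −1.25 and −1.11 in wild type against −0.44, −0.77 and −0.04, with no overlap and a difference of 0.94 ± 0.34 (unadjusted p = 0.0232). C1qb read 0.33, 0.88, −0.44, −0.71 and 1.47 against 1.71, 1.05 and 1.79, a difference of 1.21 ± 0.52 (unadjusted p = 0.0442), with wild-type replicate 5 above labelled p21-null replicate 2. C1qc gave 1.46 ± 0.56 (unadjusted p = 0.0295), again with wild-type replicate 5 inside the labelled p21-null range. The adjusted p-values of the 3 genes were between 0.403 and 0.479.

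Pf4, a chemokine used as a marker of fetal macrophages and also a major platelet product, read −0.14, 0.10, −3.78, 0.58 and 2.96 in wild type and 3.66, 1.22 and 4.78 in the labelled p21-null arrays. Its difference was 3.27 ± 1.36 (9.67-fold, unadjusted p = 0.039, adjusted p = 0.461), and it was 2.34 without wild-type replicate 3 and 2.49 (unadjusted p = 0.145) without labelled p21-null replicate 3. Wild-type replicate 5 was again inside the labelled p21-null range. A list of 10 other genes of megakaryocytes and platelets had a median difference of 2.01, and the part of platelets in the Pf4 value was not tested.

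The other resident genes did not reach an unadjusted p of 0.05. Lyve1, a hyaluronan receptor of perivascular macrophages and lymphatic vessels, differed by 1.71 ± 0.95, Vsig4, a complement receptor of resident macrophages, by 1.35 ± 0.64 (a wild-type signal over background on 1 array of 5), the mannose receptor Mrc1 by 1.16 ± 0.87 and Mertk, a receptor for apoptotic cells, by 0.97 ± 0.65. Vsig4 passed the filter on dim probes only through its labelled p21-null arrays, which favoured a positive difference. The log2 values of the authors' deposited table gave 0.52 for Vsig4, leaving out wild-type replicate 1 gave 0.73 for Mrc1 and leaving out wild-type replicate 3 gave 0.49 for Mertk. Cd163, a haemoglobin scavenger receptor, gave 0.44 ± 1.11 and Folr2, a folate receptor, 0.29 ± 0.78. Cx3cr1, the fractalkine receptor, gave −0.15 ± 0.46, with an interval of −1.20 to 0.90, while its dimmer probe gave 0.50 ± 1.0. Its labelled p21-null arrays, 0.41, 1.15 and −0.82, held both the highest and the lowest value of all 8.

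Csf1r, the receptor for the macrophage growth factors Csf1 and Il34, depended on the probe. The brightest of its 3 probes, which stands for the gene, read 3.82, 3.85, 3.76, 3.67 and 3.60 in wild type and 3.17, 3.76 and 3.51 in the labelled p21-null arrays, a difference of −0.26 ± 0.26. Probe 2 read 0.53, 1.0, 0.48, −0.23 and 2.15 against 2.64, 1.09 and 2.05, a difference of 1.14 ± 0.57, and probe 3 read −0.64, 0.27, −2.79, −0.02 and 1.82 against 2.45, 1.28 and 1.70, a difference of 2.08 ± 0.88. The bright probe hardly varied within wild type (SD 0.10), whereas the dimmer probes had SDs of 0.88 and 1.67 and placed wild-type replicate 5 highest among wild type. All 3 probes carry the same RefSeq transcript.

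Several probes read 7 of the genes. Laptm5 gave 2.09 and 2.14, Hmox1 0.96 and 1.40, and Adgre1 the values above, so their probes lay within their standard errors. Msr1, a scavenger receptor for modified lipoproteins, gave 0.06 ± 0.67 on the brighter probe and 1.82 ± 1.10 on the dimmer, the latter above background on 1 of 5 wild-type arrays. Itgam, the integrin alpha chain CD11b, gave −0.02, 0.34 and −0.05; its brightest probe had a wild-type mean of 7.34, while those of the dimmer probes were −1.88 and −2.53. Why these levels lie so far apart was not tested, so the value that stands for Itgam is uncertain.

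**Figure D2:**
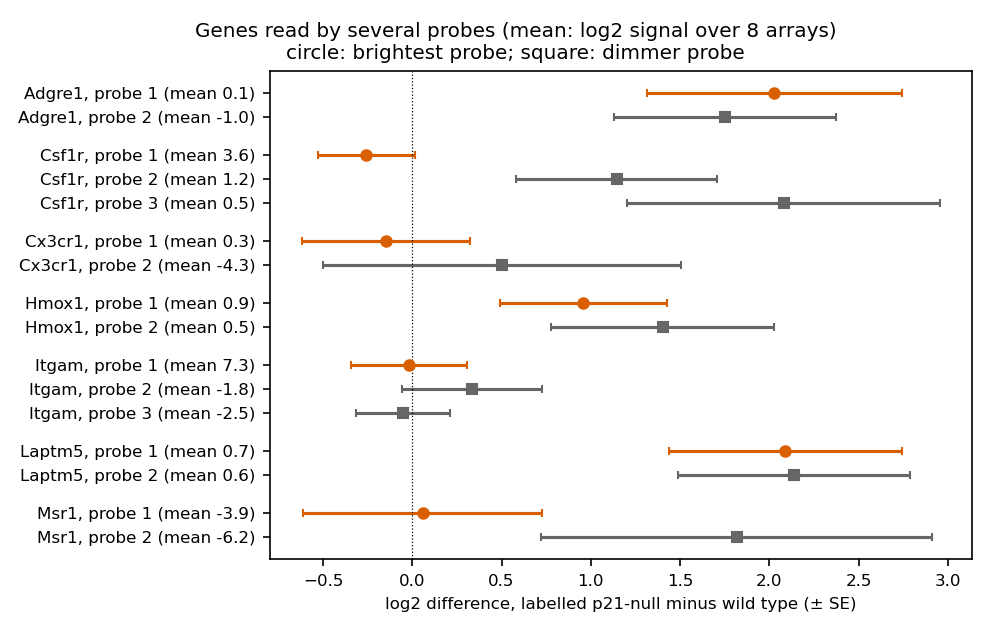
Difference, labelled p21-null minus wild type, in log2 signal (x axis), for each probe of the 7 genes read by several probes; whiskers are standard errors and the number beside a probe is its mean over 8 arrays. Csf1r differs between its brightest probe (−0.26) and its dimmer probes (1.14 and 2.08), while both probes of Adgre1 and of Laptm5 lie above 1.5.

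Pan-leukocyte genes are expressed in nearly all blood cells of the immune lineages. Among the macrophage and myeloid sets with more than 2 genes, theirs was the median furthest above 0. All 6 were higher, with a median of 1.92, and 4 were higher at an unadjusted p under 0.05 (6.2% of all features). Coro1a, an actin regulator of leukocytes, read 0.17, −0.55, −0.20, 0.28 and 0.84 in wild type and 1.53, 0.83 and 2.67 in the labelled p21-null arrays. Labelled p21-null replicate 2 fell just under wild-type replicate 5, and the difference was 1.57 ± 0.47 (2.97-fold, unadjusted p = 0.00882, adjusted p = 0.325). Laptm5, a lysosomal protein of haematopoietic cells whose promoter stretch is printed above, read −0.50, 0.20, −1.43, −0.23 and 1.57 against 2.29, 1.10 and 2.64. Wild-type replicate 5 lay above labelled p21-null replicate 2, and the difference was 2.09 ± 0.65 (4.26-fold, unadjusted p = 0.0104).

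Itgb2, the shared beta chain of the leukocyte integrins, read −1.42, −1.34, −1.15, −0.23 and 1.22 in wild type and 2.67, 0.20 and 3.49 in the labelled p21-null arrays, a difference of 2.70 ± 0.84 (6.52-fold, unadjusted p = 0.0102). Cd53, a tetraspanin of leukocytes, differed by 3.47 ± 1.48 (unadjusted p = 0.0436), with a wild-type range from −8.01 to −0.23; without wild-type replicate 3 the difference was 2.28. Cd52, a small surface glycoprotein of lymphocytes and myeloid cells, gave 1.75 ± 0.85 (unadjusted p = 0.0701). Ptprc, which encodes CD45 and is the broadest leukocyte marker of the set, differed by 0.21 ± 0.34, with an interval of −0.55 to 0.98 that leaves out the differences of the other 5 genes.

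Among the 9 myeloid receptors and adaptors, 6 were higher, with a median of 0.43. Of these, 2 were higher at an unadjusted p under 0.05 (6.2% of all features), both of them ITAM adaptors. Tyrobp, which passes signals from Trem2 and related receptors to the kinase Syk, read 1.81, 1.48, 1.33, 0.63 and 2.42 in wild type and 3.61, 2.38 and 3.46 in the labelled p21-null arrays. Labelled p21-null replicate 2 and wild-type replicate 5 were nearly level, and the difference was 1.62 ± 0.46 (3.07-fold, unadjusted p = 0.0066, adjusted p = 0.308). Fcer1g, the adaptor of Fc receptors, read 0.69, 0.99, −0.23, 0.71 and 1.84 against 2.37, 1.51 and 2.67, a difference of 1.38 ± 0.48 (unadjusted p = 0.018). Both adaptors had wild-type replicate 5 as their highest wild-type array.

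The surface receptors of the set did not reach an unadjusted p of 0.05. Trem2, a lipid-sensing receptor of macrophages, gave 1.64 ± 0.73 (unadjusted p = 0.0524), with labelled p21-null replicate 3, at −1.05, below 2 wild-type arrays. The Fc gamma receptors Fcgr3, Fcgr2b and Fcgr1 gave 0.78 ± 0.45, 0.43 ± 0.31 and 0.12 ± 0.49. Cd14, the coreceptor for lipopolysaccharide, gave −0.03 ± 0.29 and Cd33, an inhibitory sialic acid receptor, −0.21 ± 1.18. For Cd33 the interval ran from −2.88 to 2.45, so that these arrays leave it nearly unmeasured, while that of Cd14 ran from −0.69 to 0.63.

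Genes of scavenging and degradation were higher in all 7 measured cases, with a median of 1.51. Of the 7, 4 genes, Gpnmb among them, were higher at an unadjusted p under 0.05 (6.2% of all features). Gpnmb, a lysosome-associated glycoprotein of phagocytes with a high lysosomal load, had the smallest p among the 43 genes (unadjusted 5.78e-05, adjusted 0.187). It read −7.89, −8.23, −8.08, −7.62 and −6.87 in wild type, not well above background on any of the 5 arrays, and −3.04, −4.91 and −4.69 in the labelled p21-null arrays, above background on all 3. With the main processing and all arrays, this put it at least 3.83-fold higher, a bound that holds for that setting alone. For the bound, each wild-type array counts at the Gpnmb value or at its dimmest signal over background, whichever is higher. The measured means differed by 3.53 ± 0.50. Without labelled p21-null replicate 1 the bound was 2.55-fold, and the difference of means was 1.36 on the log2 scale with normexp background correction and 1.39 from the log2 values of the authors' deposited table, both below the bound given here. Gpnmb entered the test only through its labelled p21-null arrays, so it had to differ between the groups.

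Marco, a scavenger receptor for bacteria and particles, read −0.07, −1.02, 0.80, −0.66 and 1.68 in wild type and 3.28, 1.48 and 2.98 in the labelled p21-null arrays, a difference of 2.43 ± 0.67 (5.41-fold, unadjusted p = 0.00565, adjusted p = 0.305). Lyz1 and Lyz2 are neighbouring genes for lysozyme, an enzyme that cleaves bacterial cell walls, and their transcripts are alike enough that a probe may read both. Lyz1 read −0.65, −0.15, −2.20, −0.75 and 2.04 against 2.75, 1.62 and 2.95, a difference of 2.78 ± 0.82 (6.87-fold, unadjusted p = 0.00812). Lyz2 read −0.22, −4.23, −1.87, −1.84 and −1.89 against 0.30, −0.99 and −0.80, a difference of 1.51 ± 0.77 (unadjusted p = 0.0824). The lysozyme probes ordered the wild-type arrays differently: replicate 5 was the highest for Lyz1, and replicate 1 for Lyz2.

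Aif1, the cytoplasmic protein IBA1 used to stain macrophages and microglia, differed by 0.97 ± 0.41 (unadjusted p = 0.0439). Hmox1, the haem oxygenase that macrophages use to recycle haem from red cells, gave 0.96 ± 0.46 (unadjusted p = 0.0673). Its wild-type values of 0.58, 0.28, 0.53, −0.47 and 1.55 overlapped the labelled p21-null values of 1.69, 0.86 and 1.80 at wild-type replicate 5.

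Antigen-presenting genes lay on both sides of 0. Of the 5, 3 were above 0 and 2 below, and the median was 0.18. In either direction, 0 had an unadjusted p under 0.05 (10.1% of all features). Cd74, the invariant chain that escorts class II molecules, read −1.79, −1.79, −0.18, −1.35 and −1.33 in wild type and −0.53, −0.34 and −2.47 in the labelled p21-null arrays, a difference of 0.18 ± 0.57. H2-Eb1, a class II beta chain, read −3.24, −2.99, −0.98, −1.72 and −3.03 against −1.81, −2.29 and −3.51, a difference of −0.14 ± 0.62. In both genes labelled p21-null replicate 3 was the lowest of the 8 arrays and wild-type replicate 3 the highest.

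H2-Ab1, the partner beta chain of H2-Aa, differed by −0.33 ± 0.78; its wild-type replicate 1 spot was an outlier in the scan and was dropped, so n = 4 there. H2-Aa read −7.25, −4.50, −2.18, −3.92 and −3.07 against −3.01, −3.35 and −5.16, a difference of 0.34 ± 1.05. The intervals of these 4 genes together spanned −2.13 to 2.71, so these arrays do not show that the genes were level. Itgax, the dendritic cell integrin CD11c, gave 1.73 ± 0.95. It was over background on 1 array in wild type and on 2 in the other group. Without the latter it would not have passed the filter on dim probes, which favoured a positive difference. Leaving out labelled p21-null replicate 2 gave 0.73 and leaving out replicate 1 gave 2.98 for this gene, and the log2 values of the authors' deposited table gave 0.81. The sign of the antigen-presenting median rested on single arrays: it was −0.33 without wild-type replicate 1, and leaving out labelled p21-null replicates 1, 2 or 3 gave −0.12, −0.21 and 0.86. No test of a difference between the antigen-presenting genes and the other sets was made.

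Each slide held both groups, which allowed the differences to be taken within slides. Over the 43 genes the median difference was 1.42 on slide 1 (1 array against the mean of 3), 0.86 on slide 2 and 0.50 on slide 3 (1 array against 1), and 37, 36 and 30 genes were above 0. The median and the share above 0 over all features were not computed within slides. These within-slide values therefore have no background to be set against. With slide as a block in the limma fit, the median was 1.22, and 19 genes were higher at an unadjusted p under 0.05 (against 5.64% of all features). Tissue-resident genes had medians of 1.27, 0.68 and 0.52, pan-leukocyte genes 2.65, 0.92 and 1.06, and scavenging genes 2.40, 1.40 and 0.98. The antigen-presenting medians were 0.72, 0.57 and −1.14, and on slide 3 only 1 of the 5 genes, Itgax, was above 0. Spi1 was higher within every slide (3.23, 1.14 and 0.55), as were Marco (3.38, 2.14 and 1.30) and Tyrobp (2.07, 1.75 and 1.03).

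**Figure D3:**
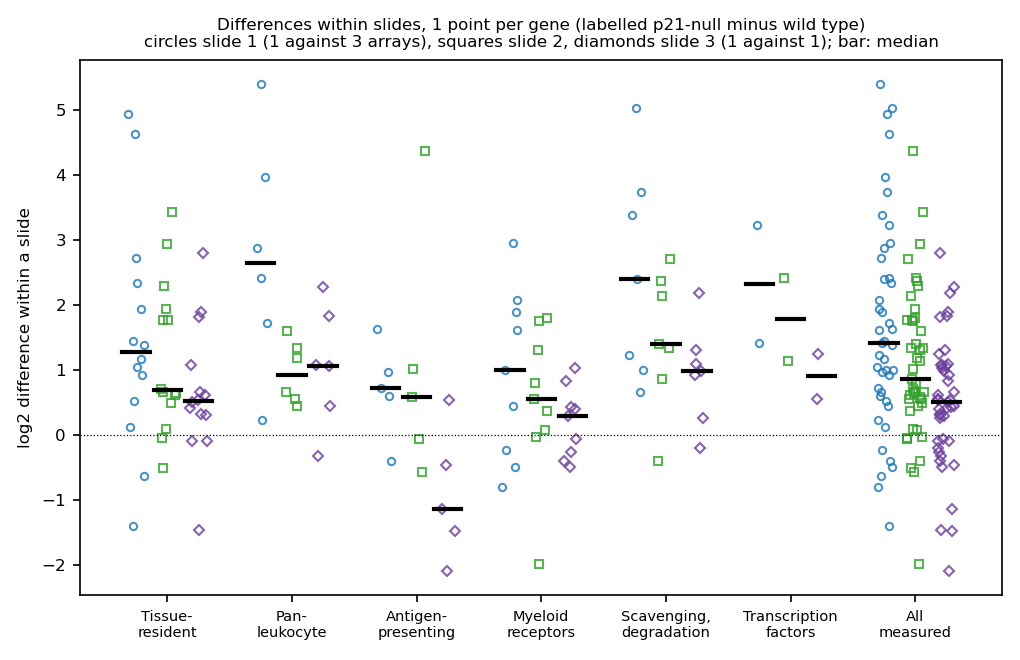
Differences within each slide, labelled p21-null minus wild type (y axis, log2 units), with 1 point per gene and black bars for medians; circles are slide 1 (1 array against the mean of 3), squares slide 2 and diamonds slide 3 (1 array against 1). The medians over all measured genes are 1.42, 0.86 and 0.50, and the antigen-presenting median is below 0 on slide 3 alone.

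The wild-type arrays themselves were uneven in these genes. Wild-type replicate 5 was above the wild-type median in 35 of 43 genes and the lowest of all 8 arrays in 0, close to the labelled p21-null arrays, which were above that median in 35, 37 and 37 genes. Wild-type replicates 3 and 4 were above it in 7 and 9 genes and were the lowest of the 8 in 13 and 10. Labelled p21-null replicates 1 and 3 were the highest of all arrays in 12 and 16 genes and replicate 2 in 4. Without labelled p21-null replicate 1, or without replicate 3, the count of genes higher at an unadjusted p under 0.05 was 9 rather than 18 (against 4.83% and 2.97% of all features). Without wild-type replicate 5 it was 23 (against 7.03%).

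Genes of ITAM signalling, downstream of Tyrobp and Fcer1g, were mostly higher: 16 of 17 measured, with a median of 1.39, 9 higher at an unadjusted p under 0.05 (6.2% of all features) and 5 with groups that did not overlap (4.43% of all features). The 3 of smallest p were Inpp5d, the lipid phosphatase SHIP1, at 1.95 ± 0.42 (unadjusted p = 0.00132), the adaptor Lcp2 (SLP-76) at 3.32 ± 0.80, whose wild-type signal was over background on 1 array alone and which passed the filter only through the other group, and the kinase Btk at 1.92 ± 0.47. Inpp5d read −1.36, −2.18, −2.21, −2.06 and −0.83 in wild type and 0.41, −0.39 and 0.64 in the labelled p21-null arrays, all 3 above every wild-type array.

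Genes of engulfment and the phagocyte oxidase were higher in 16 of 24 cases, with a median of 0.76 (47.7% of all features were higher), and 6 were higher at an unadjusted p under 0.05 (6.2% of all features). One of the 6, Itgb3, is also on the platelet list. Rac2, the haematopoietic Rac GTPase, gave 1.92 ± 0.45 (unadjusted p = 0.00216), Cybb, the catalytic subunit of the oxidase, 3.03 ± 0.86 (unadjusted p = 0.00668), and Vav1, a Rac exchange factor of blood cells, 2.52 ± 0.77 (unadjusted p = 0.00985). In each of the 3 the groups did not overlap, though for Cybb the nearest arrays of the groups read −0.20 and −0.18. Over the list, 4 of the 24 genes had labelled p21-null arrays all above wild type (4.43% of all features).

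Growth factors and further transcription factors of the lineage were split evenly, 10 higher and 10 lower, with a median of 0.12. Of the 20, 3 were higher at an unadjusted p under 0.05 (6.2% of all features). These were Ikzf1, a factor of blood progenitors and lymphocytes, at 1.56 ± 0.56, Irf5 at 0.96 ± 0.39 and Cebpa, a factor of myeloid progenitors and also of hepatocytes, at 1.39 ± 0.57. The class II pathway beyond the listed genes was likewise divided, 9 higher and 6 lower of 15, with a median of 0.11. Its 3 genes of smallest p were the lysosomal protease Ctss (1.56 ± 0.53, unadjusted p = 0.0173), the costimulatory ligand Cd86 (2.88 ± 1.05, above background on 2 of 5 wild-type arrays) and H2-DMb1, a chain of the peptide exchanger DM (−1.16 ± 0.70, unadjusted p = 0.133). Cd86 passed the filter on dim probes only through its labelled p21-null arrays, which favoured a positive difference.

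Some lists of other blood and liver cells also had medians above 0 on these arrays, though no gene in them passed the adjusted threshold. The granulocyte, megakaryocyte, erythroid and hepatocyte medians were above the 1.21 of the macrophage and myeloid genes. At an unadjusted p under 0.05 (limma), 8 of 13 granulocyte, 3 of 8 monocyte and 6 of 10 megakaryocyte genes were higher. So were 12 of 19 erythroid and 18 of 19 hepatocyte genes, against 6.2% of all features. In 1, 1, 0, 11 and 5 genes, in that order, every labelled p21-null array lay above every wild-type array (4.43% of all features). Granulocyte and progenitor genes were higher in 13 of 13 cases, with a median of 2.35; their mean per array ran from −3.28 to −0.19 in wild type and from −1.45 to 1.54 in the labelled p21-null arrays. In this list Mpo, the granule peroxidase of neutrophils and their progenitors, gave 3.83 ± 1.18, the antimicrobial peptide Camp 3.59 ± 0.96 and the lectin Fcnb 2.61 ± 0.76. Monocyte genes were higher in 6 of 8 cases (median 0.72; means from −1.86 to −1.26 against −1.41 to −0.38). Ccr2, the chemokine receptor of inflammatory monocytes, read −4.17, −4.59, −4.69, −4.86 and −3.84 in wild type and −1.91, −2.53 and −3.19, a difference of 1.89 ± 0.38 (unadjusted p = 0.000788, adjusted p = 0.283).

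Megakaryocyte and platelet genes were higher in 9 of 10 cases (median 2.01; means from −2.09 to −0.00 against −0.78 to 2.17), led by Itgb3 (3.26 ± 1.0), Gp9 (3.79 ± 1.25) and Ppbp (3.57 ± 1.38). Erythroid genes were higher in 16 of 19 (median 1.88; means from 0.86 to 2.94 against 3.05 to 3.80), and hepatocyte genes in 19 of 19 (median 2.53; means from −0.70 to 3.1 against 2.90 to 4.27), among them Hp at 3.39 ± 0.58. All 19 erythroid and all 19 hepatocyte genes tested were well above background on all 8 arrays, so none of those tested was absent. The erythroid list holds 20 genes, and 1 of them had no named probe. The part of these cells in the macrophage and myeloid differences was not tested.

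Lymphocyte genes were higher in 7 of 12 cases with a median of 0.12 (means from −3.46 to −3.12 against −3.34 to −2.49), and mast cell genes in 1 of 5 with a median of −0.49. Of the 12 lymphocyte genes, 2 were higher at an unadjusted p under 0.05 (6.2% of all features), Vpreb1 (1.11 ± 0.42) and Klrb1c (2.30 ± 0.95). Only in 1, Vpreb1, did the groups not overlap (4.43% of all features). Klrb1c passed the filter on dim probes only through its labelled p21-null arrays. Endothelial genes had a median of 0.06 (10 of 16 higher), stromal genes −0.67 (3 of 15 higher) and genes of mesonephric epithelium −0.53 (5 of 18 higher). The mean of 17 epithelial genes with a value on all arrays ran from −2.03 to 0.81 in wild type and from −1.94 to −0.67 in the labelled p21-null arrays. Of the 15 stromal genes, 1, Nr2f1, was lower at an unadjusted p under 0.05 (−1.80 ± 0.73), against 3.91% of all features.

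**Figure D4:**
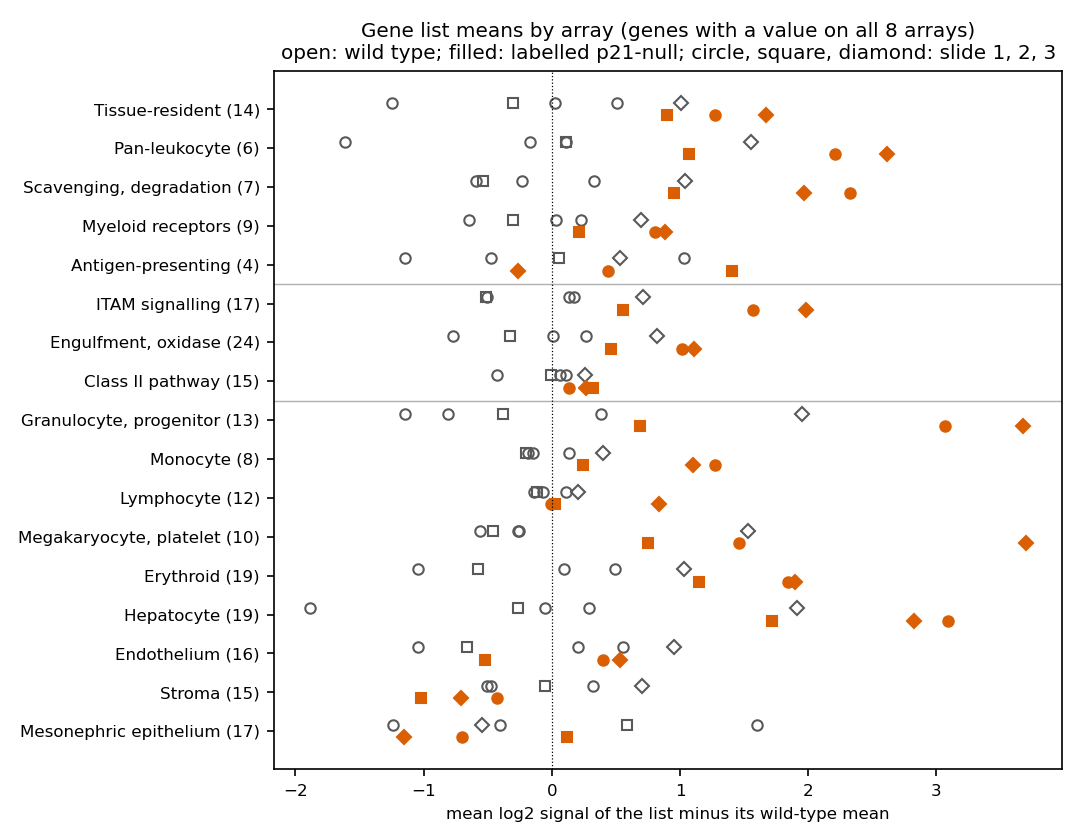
Mean log2 signal of each gene list on each array minus its mean over the 5 wild-type arrays (x axis, log2 units), over the genes with a value on all 8 arrays (number in parentheses); open symbols are wild type, filled symbols labelled p21-null, and circles, squares and diamonds are slides 1, 2 and 3. Wild-type replicate 5 (open diamond) is the furthest right among wild type for the tissue-resident, pan-leukocyte, granulocyte, megakaryocyte, erythroid and hepatocyte lists, and of these 6 lists only the erythroid means do not overlap between the groups.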

How the data were processed

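Total RNA of 8 samples was hybridised to 1-colour Agilent arrays. The deposited scanner output holds processed and median spot intensities from Agilent Feature Extraction 10.7.3.1, per the file headers, corrected for background and spatial trend in the processed intensity, with no scaling between arrays. The authors' deposited series table holds log2 values per probe; limma is named in the submitters' processing notes, and its steps are not given in the sources used here.

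Probes were named by matching accessions without versions to RefSeq (GRCm38.p6), which gave a symbol for 26056 of 55681 probes on 62976 spots (59305 not controls). The log2 processed intensity minus the 75th percentile of the array was used. Spots marked as outliers were dropped, spots of a probe averaged, probes dropped unless well above background on 3 or more arrays (50046 stayed), and the brightest probe taken for each gene. The group comparison used lmFit and eBayes of limma 3.58.1 (R 4.3.3) with no covariate, with Benjamini-Hochberg adjustment over 33619 features; intervals are at 95%. Folds are antilogs of differences. The fit was checked on simulated data with noise independent between genes and arrays and no slide effect. Such data cannot show how a slide effect changes the p-values.

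The genes and lists were chosen with earlier results of these data known. All 44 were open to naming, with the 3 genes of smallest p in each further list. Promoter sequences were to be shown for genes whose groups did not overlap, for the lysozyme pair and for class II genes. Of these only H2-Eb1 and H2-Aa are shown, and 4 others were added afterwards. Slides were read from the array barcodes. Alternatives were quantile or median scaling, normexp (offset 50, on median intensities, since no mean intensity column was used), dropping or tightening the filter on dim probes, slide or replicate number as a block, the mean of a gene's probes, the deposited table, and leaving out each array. Same-numbered arrays did not deviate together (correlations 0.0645, −0.0841 and −0.0739), so numbers were not taken as pairs. The 5 pairs on a shared slide all correlated above 0, between 0.0172 and 0.228, and pairs on different slides between −0.12 and 0.0936. The main fit has no slide term, so its standard errors and p-values take no account of slide. The slide block is an alternative. The number of arrays limits the precision.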

Additional observations from a re-analysis of the deposited data

Results flagged for a closer look

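Among 62 genes and list means examined for a single wild-type array far from the other 4 (Dixon's gap test, critical value 0.71), 6 were picked out, where chance gives about 3.1. Wild-type replicate 3 was low for Folr2 (−5.54, the nearest array at −2.52) and high for Cd74 (−0.18, the nearest at −1.33). Wild-type replicate 5 was high for Itgax (−5.99 against −7.86), which is above background on that array alone in wild type, and for the mean of megakaryocyte and platelet genes (−0.00188 against −1.79). Wild-type replicate 4 was low for Irf8 (−2.94 against −1.20). Wild-type replicate 1 was low for Cd14 (−3.10 against −2.92), a gap of small size in a group with little spread.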

How the results depend on the processing

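Of 721 differences recomputed over 43 genes and 17 alternatives, 37 changed sign, in 13 genes, all with a main difference between −0.33 and 0.44; 30 genes kept their sign in each alternative run. Of the 18 genes higher at an unadjusted p under 0.05, 7 kept it without each array in turn (Timd4, Laptm5, Coro1a, Tyrobp, Lyz1, Marco and Gpnmb). Under the alternatives that keep all arrays 14 did, with the strictest filter on dim probes left out of this count for every gene. That filter gives no value for some genes, Timd4 and Gpnmb among them. Gpnmb is in both counts, though it passed the main filter only through its labelled p21-null arrays and so had to differ. How many of all higher features kept that level in the same runs was not counted. The 7 and the 14 therefore do not show that these genes were more stable than other features. The median over all 43 genes lay between 0.84 and 1.27 with all arrays and between 1.02 and 1.5 with 1 left out; for tissue-resident genes these ranges were 0.79 to 1.26 and 0.99 to 1.41, for pan-leukocyte genes 1.74 to 2.36 and 1.62 to 2.33, and for antigen-presenting genes 0.016 to 0.27 and −0.33 to 0.86. Features past the adjusted threshold numbered 3 with normexp and 0 to 1 with an array left out (1 without wild-type replicate 4). Features at an unadjusted p under 0.05 numbered 1750 to 3810 with an array left out, 1750 being without labelled p21-null replicate 3, and the genes counted here 9 to 23. With the replicate block, in which wild-type replicates 4 and 5 have no partner number and so add nothing to a difference, 0 features passed the adjusted threshold, 3898 had an unadjusted p under 0.05, and 17 of the 43 genes were higher at that level; it changed no adjusted call. Cd14 turned positive with quantile scaling (0.0393), median scaling (0.0287), normexp (0.0611) and the deposited table (0.12), Cd33 with normexp (0.0557) and the deposited table (0.0898), and Itgam with median scaling (0.0441), the replicate block (0.0764) and the mean of its probes (0.0891). Cd163 fell to −0.0775 with slide as a block, and the mean of the probes gave 0.99 for Csf1r and 0.18 for Cx3cr1. With an array left out, ranges across 0 were −0.42 to 1.0 for H2-Aa, −0.17 to 0.14 for Itgam, −0.93 to 1.13 for Cd33, −0.55 to 1.58 for Cd163, −0.37 to 0.58 for Folr2, −0.51 to 0.34 for H2-Eb1, −0.30 to 0.53 for Fcgr1, −0.36 to 0.75 for Msr1, −0.21 to 0.86 for Cd74, −0.26 to 0.21 for Cd14, −0.60 to 0.39 for Cx3cr1 and −1.18 to 0.59 for H2-Ab1. The cause of these changes was not tested. Signals near background, as for Gpnmb, Itgax, Vsig4, Cd163 and Cd33, limit what their differences show: with normexp Gpnmb differed by 1.36 rather than 3.53.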
